A study of Mus musculus with 10 samples.

Results

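The 3 libraries described here asked what knockdown of Xpc changed in mouse embryonic stem cells that already lacked Rad23b. They were taken by their genotype labels from the 10 samples of the series, which holds 4 RNA-seq libraries in all. Each came from poly-A RNA of the JM8.N4 line, a mouse embryonic stem cell line used for gene targeting. The control library was from Rad23b-/- cells, and the other libraries were from Rad23b-/- cells with Xpc knocked down by the first hairpin (Rad23b-/-Xpc KD1, knockdown 1) or by an independent second hairpin (Rad23b-/-Xpc KD2, knockdown 2). Loss of Rad23b was thus common to all 3, and a wild-type JM8.N4 library served as a reference level. There was 1 library per group, so no test was made and no p-value is given. The labels name no control hairpin for the Rad23b-/- library, so the loss of Xpc and the introduction of a hairpin cannot be told apart. The labels do not say how many clones the cells came from.

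XPC binds distorted DNA and starts global-genome nucleotide excision repair, together with RAD23B and a centrin. RAD23B stabilises XPC and also carries ubiquitylated proteins to the proteasome. In embryonic stem cells the same trimer has been described as a coactivator for OCT4 and SOX2, which makes pluripotency genes the natural readout of its loss.

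Xpc RNA was far lower with both hairpins. Xpc (chr6:91439298-91465878, mm9) stood at 8.73 RPKM (reads per kilobase of transcript, scaled to the size of the library) in wild type, 8.34 in Rad23b-null, 0.939 with the first hairpin and 0.910 with the second. Below, 4 values in a row run from wild type through Rad23b-null and knockdown 1 to knockdown 2, and 3 values start at Rad23b-null unless said otherwise. Both knockdowns were far below the other libraries for Xpc, at 11.3% and 10.9% of the Rad23b-null level, and they lay next to each other. On the log2(RPKM + 1) scale used throughout, which understates the change of low genes, the difference from Rad23b-null was -2.27 in knockdown 1 and -2.29 in knockdown 2. Counting from the lowest value, Xpc ranked 12 of 12624 genes in knockdown 1 and 11 of 12596 in knockdown 2.

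The other genes of the complex described here stood near their Rad23b-null levels. Rad23b had 229 RPKM in wild type and 43.9, 36.8 and 53.4 in Rad23b-null, knockdown 1 and knockdown 2. Its residual reads were thus a little lower with the first hairpin and a little higher with the second. Cetn2, the centrin of the trimer, was at 30.4 in Rad23b-null, 38.9 with the first hairpin and 37.4 with the second, and Cetn3 at 38.7, 51.7 and 46.8. Both centrin genes were lower in Rad23b-null cells than in either knockdown, by at most 0.41 log2, and highest in wild type (44.2 and 85.2). Cetn1, a germ cell centrin, was listed at exactly 1 in all 4 libraries, the value that stands in these tables where 0 would be and that was read as 0. Cetn3 is listed on coordinates that a further gene shares, and a value of such a locus may not belong to 1 gene.

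**Figure D1:**
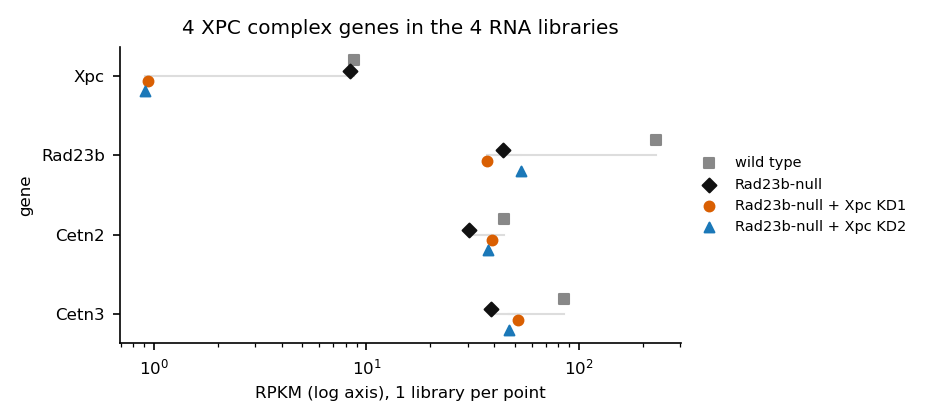
RPKM on a log axis of 4 XPC complex genes, 1 point per library, with the library given by colour and shape. Xpc lies near 0.9 RPKM in both knockdowns against 8.34 in Rad23b-null cells, while Rad23b, Cetn2 and Cetn3 in the knockdowns lie close to Rad23b-null.

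Apart from Xpc, few genes differed. Among 12624 protein-coding and lincRNA genes with at least 1 RPKM in either library, 25 were at least 2-fold higher in knockdown 1 than in Rad23b-null cells (0.198%) and 58 were at least 2-fold lower (0.459%), or 83 in all (0.657%). In knockdown 2, 34 of 12596 genes were higher (0.27%) and 39 lower (0.31%), or 73 in all (0.58%). The knockdowns differed from each other at a similar rate, with 64 of 12539 genes at least 2-fold apart (0.51%). Between Rad23b-null and wild-type cells 813 of 12689 genes were that far apart (6.41%). At 1.5-fold the shares were 1.89% higher and 1.92% lower in knockdown 1, 1.14% and 1.52% in knockdown 2, 1.61% and 1.42% between the knockdowns, and 9.28% and 15.3% for Rad23b-null against wild type. The counts in each gene list below are to be read against these shares. The share of all genes merely above or below Rad23b-null was not counted, so counts by direction alone have no such share beside them. The spread of all genes ran the same way. The standard deviation of the log2 ratio was 0.32 for knockdown 1 against Rad23b-null, 0.29 for knockdown 2 against Rad23b-null and 0.28 between the knockdowns, but 0.56 for Rad23b-null against wild type. The median log2 ratio was 0.02 in both comparisons. RPKM is scaled to the size of the library, so this median cannot show a change in total RNA. Both comparisons use the same Rad23b-null library, so a value far off in that library enters both; how much of these differences is between libraries and how much is from the hairpins was not tested.

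**Figure D2:**
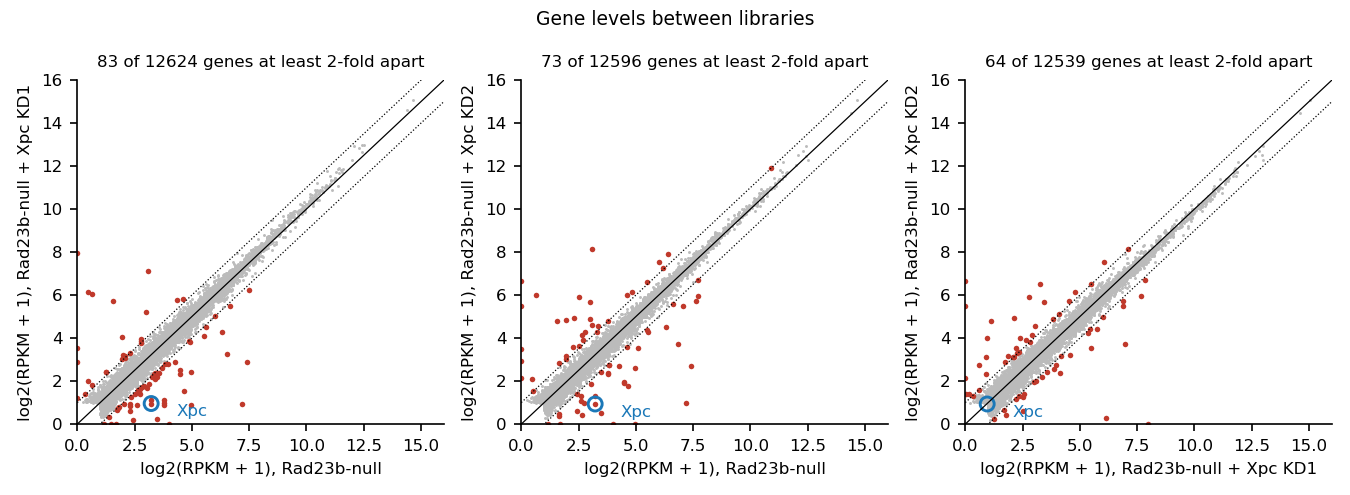
Each point is a gene with at least 1 RPKM in either library, plotted by log2(RPKM + 1) in the 2 libraries named on the axes; the solid line marks equal levels, dotted lines a 2-fold difference, and red points lie beyond it. The counts are 83, 73 and 64 genes in the 3 panels, and Xpc (circle) is off the line only in the panels that set a knockdown against Rad23b-null.

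Predicted gene models and clone names (Gm followed by a number, or ending in Rik) made up 11.6% of the genes compared in knockdown 1 but 36 of the 83 that were at least 2-fold apart (43.4%), and in knockdown 2 27 of 73 (36.99%). Genes on shared coordinates were 39 of the 83 (46.99%) and 32 of the 73 (43.8%), against 38.6% and 38.5% of the genes compared. Among genes with both a name and coordinates of their own, 25 of 6868 (7 higher, 18 lower) were at least 2-fold apart in knockdown 1 and 30 of 6872 (13 higher, 17 lower) in knockdown 2. Between the knockdowns the count was 27 of 6821. The share did not follow expression in a simple way. In knockdown 1 it was 1.07% of 4216 genes with a mean of 2 to 10 RPKM and 0.353% of 1981 genes above 50, while in knockdown 2 it was 0.574% of 4184 and 0.809% of 1978.

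Genes lower with both hairpins, chosen by the smaller of their 2 differences, included a few enzymes and a chaperone. The choice rests on these values, which are therefore a description. Cryab, which encodes the small heat shock protein alpha-B crystallin, stood at 4.00 RPKM in wild type, 21.7 in Rad23b-null, 3.99 with the first hairpin and 2.84 with the second (log2 -2.18 and -2.56). Only the Rad23b-null library was high. Prmt2, an arginine methyltransferase gene, was at 5.28, 168, 6.50 and 5.44 RPKM in the same order. Trps1, a GATA-type repressor, was at 2.17, 24.3, 1.93 and 2.41. For both, 3 libraries lay together and Rad23b-null stood far above. Ctdsp2, a phosphatase that acts on RNA polymerase II, was at 26.8, 79.4, 18.4 and 21.7 RPKM, so that both knockdowns were below wild type as well. Eml2, a microtubule-associated protein gene, was at 14.2, 44.98, 16.2 and 18.5. Zfp618, a zinc finger gene, was at 7.76, 12.9, 0.860 and 4.04, with the knockdowns well apart. Cmtm2a, a gene of the chemokine-like factor family, was at 5.62, 7.18, 2.16 and 2.68. It was under the wild-type level in both knockdowns.

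The remaining genes of this kind were Gm53, Gm5662, Gm10985 and the lincRNA Gm14742. Gm53 was at 1.89 RPKM in wild type, 18.2 in Rad23b-null and, in the knockdowns, 6.31 and 5.43. Gm5662 (0.625, 7.64, 2.67 and 3.51) had the same order, with the knockdowns between wild type and Rad23b-null. Gm10985 was at 11.8 in wild type, 30.5 in Rad23b-null and 0.846 in knockdown 1, and its listed value of exactly 1 in knockdown 2 was read as 0. With Xpc these make 12 genes, and in 11 of them wild type lay on the same side of Rad23b-null as the knockdowns; Xpc was the exception. A gene that is far off in the Rad23b-null library alone meets this description by arithmetic, so nothing is read from the count.

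Genes higher with both hairpins were mostly predicted models, and 11 of the 12 had wild type on the knockdown side. A gene that is low in the Rad23b-null library alone meets this by arithmetic, so nothing is read from this count either. Ncrna00085, which RefSeq lists as an older symbol of the sperm acrosome gene Spaca6, was at 2.06 RPKM in wild type, 1.93 in Rad23b-null, 52.7 with the first hairpin and 26.7 with the second (log2 4.197 and 3.24). Both knockdowns stood far above wild type and Rad23b-null, and the gene is among the 11 only because 2.06 lies above 1.93. Gm10982 was at 0.368, 7.42, 136 and 280 RPKM and was the 1 gene of the 12 with wild type below Rad23b-null. Prmt8, a membrane-bound arginine methyltransferase of neurons, was at 5.81, 2.11, 5.10 and 6.23, so that Rad23b-null was the low library. D0H4S114 was at 24.8, 8.86, 17.7 and 18.7. Its knockdown values lay between Rad23b-null and wild type. Gm6020, the most abundant of the 12, was at 3981, 1875, 3533 and 3864 RPKM. Gm10217 (13.4, 2.84, 15.5 and 27.9), Gm7676 (12.4, 2.81, 7.25 and 7.02), Gm11161 (30.65, 5.80, 12.6 and 18.2), Gm9008 (14.2, 4.74, 9.83 and 11.3) and Gm2399 (7.66, 3.81, 8.21 and 7.96) were also lowest in Rad23b-null cells. Gm3625 was read as 0 there (listed at exactly 1), against 25.8 in wild type and 10.6 and 10.4 in the knockdowns.

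**Figure D3:**
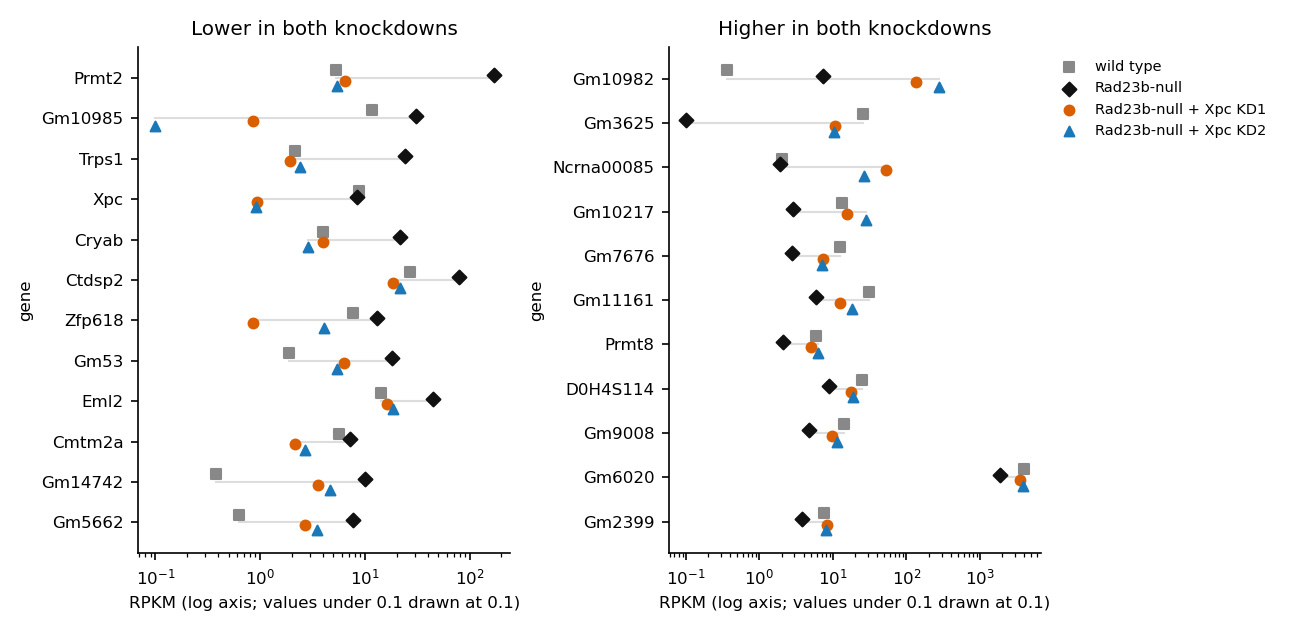
RPKM on a log axis of the 12 genes furthest below and 11 of the 12 furthest above Rad23b-null in both knockdowns, by the smaller of the 2 differences, with 1 point per library and values under 0.1 drawn at 0.1. The Rad23b-null diamond is the highest point of every row on the left except Xpc and the lowest of every row on the right except Gm10982; for Xpc and Ncrna00085 the knockdowns stand apart from both wild type and Rad23b-null.

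The extremes of each comparison were models on shared coordinates for the most part. Gm9493 was at 0.665 RPKM in wild type, 146 in Rad23b-null and, in the knockdowns, 0.907 and 0.973. Gm10126 was at 15.1 in Rad23b-null cells and read as 0 elsewhere, where it is listed at exactly 1. Gm15887 was at 60.4, 0.548, 64.7 and 63.5, low only in Rad23b-null cells. Gm16499 was at 249 RPKM in knockdown 1 and read as 0, from exactly 1, in the other libraries, while Gm10281 (100.1) and 2900060B14Rik (43.45) had this pattern in knockdown 2, apart from 3.72 for Gm10281 in wild type. Pof1b, an actin-binding protein gene also on shared coordinates, was at 70.4 in knockdown 1 and at 0.776, 0.363 and 0.1997 in wild type, Rad23b-null and knockdown 2.

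Several genes were at least 2-fold from Rad23b-null with 1 hairpin and not with the other; they were picked after their values were seen, and the difference between hairpins was not tested. In knockdown 1 Peg10 and Sgce, paternally expressed neighbours in 1 imprinted cluster, were at 53.1 and 7.49 RPKM. Peg10 was at 19.7, 19.5 and 20.7 in wild type, Rad23b-null and knockdown 2, and Sgce at 3.03, 3.20 and 3.03. The other 3 libraries were thus almost level in both genes. Prdx3, the mitochondrial peroxiredoxin gene, was at 22.1 in knockdown 1 and between 47.7 and 55.7 elsewhere. Stra8, which is induced by retinoic acid before meiosis, was at 11.1 in wild type, 28.4 in Rad23b-null, 13.4 with the first hairpin and 25.5 with the second. E2f6, a repressor of germline genes, was at 39.4, 64.0, 31.2 and 40.1 in the same order. Anxa1, an annexin gene, was at 2.65, 5.93, 13.8 and 4.89. Stra8 was near wild type in knockdown 1, E2f6 was closer to it in knockdown 2, and Anxa1 was farthest from it in knockdown 1.

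Knockdown 2 had its own set. Cdk9, the kinase of the elongation factor P-TEFb, was at 61.7 RPKM there and between 201 and 210 in the other libraries. Nupl1, a nucleoporin gene, was at 44.3 against 115 to 133, and Prdx6, a cytosolic peroxiredoxin gene, at 104 against 209 to 227. Each was low in knockdown 2 alone. Pdia4, an endoplasmic reticulum disulphide isomerase gene, was at 91.8, 83.2, 124 and 236 from wild type to knockdown 2. It was above Rad23b-null in both knockdowns and past 2-fold in the second. Tnrc6b, which encodes a GW182 protein of the microRNA silencing complex, was at 29.7 RPKM against 3.38 to 3.86. Trh, the thyrotropin-releasing hormone gene, was at 242, 27.6, 26.6 and 69.1 RPKM in wild type, Rad23b-null, knockdown 1 and knockdown 2, and Mmp17, a membrane-type metalloproteinase gene, at 69.5, 4.73, 5.91 and 58.5. For both, Rad23b-null and knockdown 1 were level and knockdown 2 lay nearer to wild type.

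Keratins of the trophectoderm stood low in knockdown 2. Krt8 was at 21.4 RPKM in wild type, 23.5 in Rad23b-null, 19.3 with the first hairpin and 11.01 with the second. Its partner Krt18 was at 18.4, 25.6, 21.2 and 12.3, and Krt7 at 2.43, 4.58, 4.80 and 1.96. All 3 were lowest in knockdown 2. Of 16 trophectoderm genes compared, 4 were at least 1.5-fold lower in knockdown 2 (background 1.52% of all genes) and 0 in knockdown 1 (1.92%), and none was at least 1.5-fold higher in either. The list's median was 0.13 log2 in knockdown 1 and -0.19 in knockdown 2, beside 0.02 over all genes; over all 22 members found it was 0.13 and -0.06. Of the 16, 5 were above Rad23b-null and 11 below in knockdown 2, against 10 and 6 in knockdown 1. Hand1, a placental helix-loop-helix factor, was the fourth of the lower genes, at 3.31 in Rad23b-null, 3.57 in knockdown 1 and 1.73 in knockdown 2. Krt19, at 78.7, 71.3 and 63.7, was lower but did not reach 1.5-fold. Gata3, on shared coordinates at 0.697, 1.39 and 1.07, was higher in both and did not reach 1.5-fold on the log2(RPKM + 1) scale. Id2, an inhibitor of DNA binding induced by bone morphogenetic protein (BMP), was at 28.9, 32.95 and 16.99 RPKM in the same libraries, and Id3, of the same family, at 15.7, 15.1 and 10.0. Of 11 BMP and mesoderm genes 3 were at least 1.5-fold lower in knockdown 2 (Id2, Id3 and Hand1, which both lists hold) and 0 in knockdown 1, with medians of -0.28 log2 in knockdown 2 and 0.03 in knockdown 1. Over all 20 members found these were -0.08 and -0.06. Bmp4 itself, on shared coordinates, was at 16.1, 12.9 and 11.05, and Id1 at 83.96, 69.0 and 65.3. The keratins mark other epithelia as well, and in bulk RNA fewer cells of a type and less RNA per cell cannot be told apart.

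Nearly all pluripotency genes lay within 1.5-fold of Rad23b-null. Of 15 core genes 0 were at least 2-fold apart in either knockdown. Pou5f1, which encodes OCT4, was at 1152 RPKM in Rad23b-null, 1507 with the first hairpin and 1455 with the second, with wild type at 1603. Sox2, on shared coordinates, was at 123, 139 and 135, and Nanog, the homeobox factor, at 197, 249 and 213. Each was slightly higher in both knockdowns than in Rad23b-null cells and below wild type (184 and 512 for Sox2 and Nanog). Dppa5a, an RNA-binding protein gene of pluripotent cells, was at 1400, 2356 and 1697 and was the 1 core gene past 1.5-fold, in knockdown 1. Fbxo15, an OCT4 and SOX2 target on shared coordinates, was lower, at 69.1, 52.0 and 55.9.

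The naive factors, which were lower in Rad23b-null cells than in wild type (median -0.71 log2), lay a little higher in both knockdowns than in Rad23b-null cells. Of 20 genes 0 were at least 2-fold apart in either comparison. In knockdown 1, 3 were at least 1.5-fold higher (background 1.89%) and 1 lower, and in knockdown 2, 0 were higher (1.14%) and 1 lower. The median was 0.23 log2 in knockdown 1 and 0.28 in knockdown 2. Klf4, a Krüppel-like factor, was at 20.1 RPKM in Rad23b-null, 30.9 with the first hairpin and 29.7 with the second. Klf2, of the same family, was at 45.2, 67.1 and 63.5, and Tfcp2l1, a grainyhead-like factor on shared coordinates, at 44.7, 63.7 and 61.8. All these knockdown values were under wild type, where Klf4 was at 78.7, Klf2 at 95.9 and Tfcp2l1 at 177. Jam2, a junction adhesion molecule, was at 38.8, 68.8 and 54.6. Esrrb, an orphan nuclear receptor gene, was at 51.5, 79.0 and 61.2. Below Rad23b-null were 6 of the 20 in knockdown 1 and 7 in knockdown 2. Past 1.5-fold among these were Lifr, the LIF receptor, in knockdown 1 (14.1, 8.04 and 12.6) and Dppa3, a maternal factor, in knockdown 2 (31.3, 29.8 and 19.9). Tbx3, a T-box factor on shared coordinates, was at 11.9, 14.25 and 11.3, and the LIF co-receptor Il6st at 9.13, 9.14 and 10.9.

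Mitochondrially encoded genes stood higher in both knockdowns. All 10 compared were above Rad23b-null in each knockdown, with medians of 0.48 and 0.43 log2, beside 0.02 over all genes. Only 1 of 10 passed 1.5-fold in each. Both comparisons use the same Rad23b-null library, so the counts are not independent, and the share of all genes above Rad23b-null was not counted. mt-Co2, a cytochrome oxidase subunit, was at 9344 RPKM in wild type, 5542 in Rad23b-null and, in the knockdowns, 8129 and 7753. mt-Nd2, a complex I subunit, was at 5268, 4367, 7926 and 5855. Rad23b-null was the lowest library for both. Cytosolic ribosomal protein genes, with 52 compared, had medians of 0.20 and 0.12 and 0 members past 1.5-fold. RPKM is relative to the whole library, and the part of these abundant genes in the levels of others was not tested.

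Genes of the 2-cell embryo, higher in Rad23b-null cells than in wild type (median 1.31 log2), were lower with the first hairpin. Over the 15 listed members found, the median was -0.41 log2 in knockdown 1 and -0.12 in knockdown 2. Zscan4f, which encodes a zinc finger protein, was at 0.274 RPKM in wild type, 5.22 in Rad23b-null, 2.03 with the first hairpin and 4.30 with the second. Tcstv3 was at 4.06, 1.37 and 3.17 in the mutant libraries and read as 0, from exactly 1, in wild type, and Gm4340 at 9.17, 3.95 and 6.40. Of the 11 members compared, 3 were at least 2-fold lower in knockdown 1 and 6 at least 1.5-fold lower, with a median of -0.60, and in knockdown 2 both counts were 0, with a median of -0.21. Zfp352, BC080695 and Dub1 reached 1 RPKM in the first comparison through Rad23b-null alone, and most others are high there, so these counts and medians describe a filtered set and support nothing. Zscan4 genes are near copies, so their reads are hard to separate. Among 22 germline genes, higher in Rad23b-null cells than in wild type (median 0.85 log2), 4 were at least 1.5-fold lower in knockdown 1 and 0 in knockdown 2. At least 1.5-fold higher were 1 in knockdown 1, Tex14, and 1 in knockdown 2, Tex13 (4.74, 3.76 and 8.83 RPKM). Taf7l, which encodes a germ cell form of a general transcription factor subunit, was at 24.1, 14.03 and 15.96 RPKM and Tex15, a meiosis gene, at 11.3, 6.37 and 8.03. Tex14, on shared coordinates, went the other way (13.5, 21.2 and 18.8).

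Immediate early and AP-1 genes, which respond to serum and stress signals, were a little lower in both knockdowns. Of 21 genes 18 were below Rad23b-null in knockdown 1 and 18 in knockdown 2, with medians of -0.19 and -0.17 log2, beside 0.02 over all genes. The share of all genes below Rad23b-null was not counted. The list was higher in Rad23b-null cells than in wild type (median 0.53 log2). Both comparisons use that Rad23b-null library, so the counts are not independent. At least 1.5-fold lower were 3 genes in knockdown 1 (background 1.92%) and 1 in knockdown 2 (1.52%). Cyr61, a matricellular protein gene, was at 28.0 RPKM in wild type, 29.9 in Rad23b-null and, in the knockdowns, 17.2 and 16.8, so that both knockdowns were below both other libraries. Junb, an AP-1 subunit, was at 17.1, 34.0, 20.2 and 24.5, and Ctgf, related to Cyr61, at 25.4, 36.4, 25.4 and 25.45. Nr4a1, an orphan nuclear receptor gene, was at 16.97, 29.5, 22.2 and 20.8. For these 3 Rad23b-null was the high library. Egr1, on shared coordinates (23.4, 21.2 and 28.95 in the mutant libraries) and Ier3 (90.1, 96.6 and 108.55) were above Rad23b-null in knockdown 2.

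The promoters of Cyr61 and Junb, the members of this list with the largest mean difference, are shown because these genes were lower in both knockdowns; they run from 250 bases before to 50 after the RefSeq start, in GRCm38.p6. Capitals mark GGAATG, the core bound by TEAD factors, and TATAAA, read on both strands; the motifs were chosen after the values were seen.
Cyr61: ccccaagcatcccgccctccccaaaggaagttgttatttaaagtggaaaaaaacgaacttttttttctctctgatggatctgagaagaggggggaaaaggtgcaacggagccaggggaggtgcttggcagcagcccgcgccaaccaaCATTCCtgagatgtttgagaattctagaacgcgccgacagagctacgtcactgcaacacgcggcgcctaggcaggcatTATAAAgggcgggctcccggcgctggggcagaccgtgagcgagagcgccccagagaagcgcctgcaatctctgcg
Junb: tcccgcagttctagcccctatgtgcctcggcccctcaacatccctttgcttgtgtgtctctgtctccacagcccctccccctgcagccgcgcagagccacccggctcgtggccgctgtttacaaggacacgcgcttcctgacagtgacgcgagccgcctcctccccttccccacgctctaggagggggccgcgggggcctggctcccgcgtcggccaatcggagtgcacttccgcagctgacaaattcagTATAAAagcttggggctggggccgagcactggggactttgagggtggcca
The Cyr61 sequence lies at chr3:145649936-145650235 on the minus strand and that of Junb at chr8:84978699-84978998 on the minus strand. GGAATG occurred once in the Cyr61 promoter, on the other strand as CATTCC, and not in that of Junb, and TATAAA once in each. A CArG box and the full cyclic AMP element TGACGTCA were searched too and had no match in either. Of 32851 mouse promoters of this length 14.7% hold GGAATG, 13.6% TATAAA, 1.63% a CArG box and 1.79% TGACGTCA. Among the 16 list members with a RefSeq promoter of 21, the counts were 2, 4, 3 and 1. A match is only a match of letters.

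**Figure D4:**
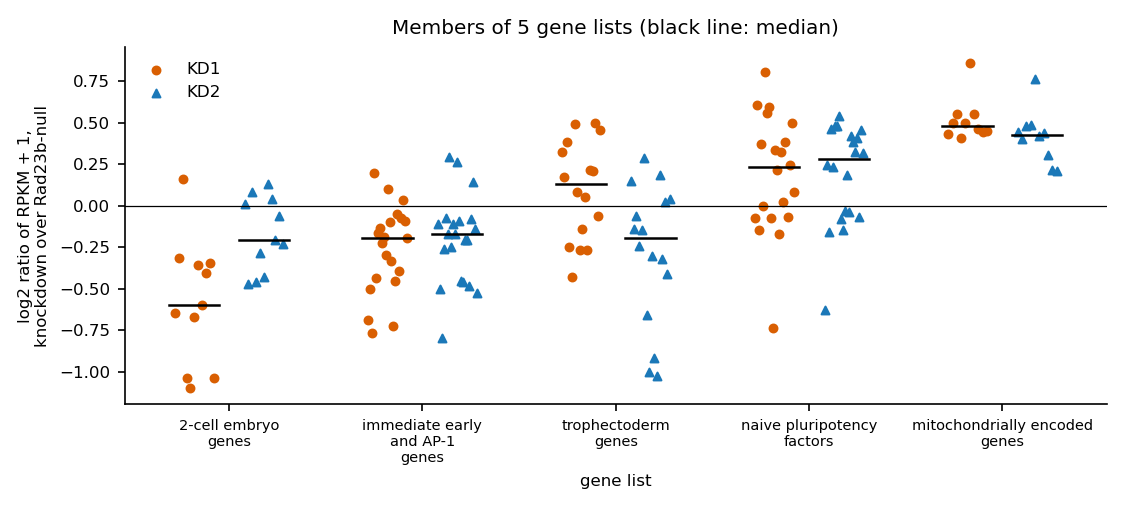
log2 ratio of RPKM + 1, knockdown over Rad23b-null, for each compared member of 5 gene lists, with circles for knockdown 1, triangles for knockdown 2 and a black line at the median. All 10 mitochondrial points of each knockdown lie above 0, and the trophectoderm medians are 0.13 and -0.19. The 2-cell embryo median in knockdown 1 is -0.60 over the compared members and -0.41 over the 15 found. Some of the compared members passed the 1 RPKM filter through Rad23b-null alone, so nothing is read from that median.

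Repair genes other than Xpc lay close to Rad23b-null. Of 32 nucleotide excision repair genes Xpc was the 1 member past 1.5-fold in either comparison, and the medians were 0.05 and 0.03 log2. Ercc4, which encodes the XPF nuclease, was at 6.98 RPKM in Rad23b-null, 9.59 with the first hairpin and 8.98 with the second. Ercc5, the XPG nuclease gene, was at 19.2, 15.0 and 16.7. Ddb2, on shared coordinates and encoding the partner that recruits XPC to ultraviolet lesions, was at 8.78, 9.47 and 9.68, and Xpa, the damage verification factor, also on shared coordinates, at 4.35, 5.16 and 4.79. Of 21 base excision and mismatch repair genes 0 passed 1.5-fold; Pms2 (31.98, 22.9 and 29.05), on shared coordinates, was the furthest off in knockdown 1, at -0.46 log2, and Neil2, a glycosylase gene, in knockdown 2, at -0.28 (4.52, 4.195 and 3.53). Among 23 p53 targets 0 were 2-fold apart and 1 was at least 1.5-fold lower in each knockdown: Ddit4l, an inhibitor of mTOR, at 20.5, 13.2 and 11.9. Cdkn1a, which encodes p21, was at 39.7, 49.5 and 42.3. Proteasome genes (33) had medians of 0.11 and 0.09, and only Psmb6, a catalytic subunit gene, passed 1.5-fold, at 213 RPKM in Rad23b-null, 130 with the first hairpin and 213 with the second. Of 20 ubiquitin shuttle genes 0 passed 1.5-fold.

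A hairpin can set off double-stranded RNA sensors and loads the small RNA machinery, so both lists were read. Of 28 interferon response genes 14 were under 1 RPKM in all 4 libraries and 10 were compared. With either hairpin 0 of the 10 were at least 1.5-fold higher (background 1.89% and 1.14%). At such shares a set of 10 genes would mostly hold 0, so nothing is read from this count. At least 1.5-fold lower was 1 gene in knockdown 1 (1.92%), Cxcl10, on shared coordinates, at 1.44, 0.506 and 0.875 RPKM. The summed level was 106 RPKM in Rad23b-null, 96.6 with the first hairpin and 115 with the second. Whether the hairpins set off these sensors was not tested. Ifit1, Ifit3, Mx1 and Rsad2 were under 0.1 RPKM in every library. Bst2, which tethers virions, was at 48.3, 42.96 and 55.4. Of 12 small RNA genes compared Tnrc6b stood out in knockdown 2, as given above, and Dgcr8, the Drosha partner, on shared coordinates, was at 81.3, 42.2 and 45.95 RPKM, with wild type at 36.4.

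Most other lists stayed close to Rad23b-null. Heat shock genes (18 compared) had medians of 0.19 and 0.01 with Cryab as the 1 member past 1.5-fold. Endoplasmic reticulum chaperones (18) had -0.04 in both, with Pdia4 the 1 gene past 1.5-fold, in knockdown 2. ATF4 targets (23) had -0.05 and 0.07; Cth, a transsulphuration enzyme gene, was at 116, 163 and 145 RPKM. Glycolysis and hypoxia genes (37) had 0.11 and 0.15 with 0 past 1.5-fold; Bnip3, a mitophagy receptor gene, was at 352, 474 and 470. Cholesterol synthesis genes (22) had 0.13 and 0.27, again with 0 past 1.5-fold, and Nsdhl, a sterol dehydrogenase gene, was at 8.54, 11.7 and 13.2. Cyclins and cell cycle inhibitors (24) had 0.17 and 0.01; Ccnd2, cyclin D2, on shared coordinates, was at 2.63, 3.12 and 5.24. Dyskerin complex genes (6) had 0.13 and 0.06. DNA methylation enzymes (17) had -0.05 and 0.14, with Dnmt3a, on shared coordinates, at 54.4, 44.96 and 76.2. Nodal and primed-state genes (11) had -0.12 and -0.03, with Lefty2, a Nodal antagonist, at 98.6, 76.0 and 63.0. Imprinted genes had 0.03 and -0.06 (20 and 21 compared), beside the Peg10 and Sgce values above. Peg3, a zinc finger gene, was at 8.56, 12.4 and 15.5. Replication-dependent histone genes, whose RNA mostly lacks poly-A tails, had -0.09 and 0.23 (13 and 16 compared). Hist1h2ac was past 2-fold in knockdown 1, at 3.01, 8.41 and 4.13. Actin cytoskeleton genes (22) had 0.12 and -0.20; Tagln, a smooth muscle gene on shared coordinates, was at 12.7, 22.8 and 8.41. The metallothioneins, with only 4 and 3 genes compared, stood higher than most lists, with medians of 0.48 and 0.33. Over all 4 found these were 0.48 and 0.26. Mt1 and Mt2 were at 372, 527 and 469 and at 522, 722 and 731 RPKM. Neural ectoderm genes (8) had -0.02 and 0.36, or 0.06 and 0.03 over all members found. In knockdown 2, 6 of the 8 were above Rad23b-null, with Dll1, a Notch ligand on shared coordinates, past 1.5-fold at 1.56, 1.98 and 3.16 RPKM. Zic2, a zinc finger factor, was at 13.97, 13.02 and 21.4, and Nes, nestin, was lower in both, at 4.48, 2.50 and 3.44.

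**Figure D5:**
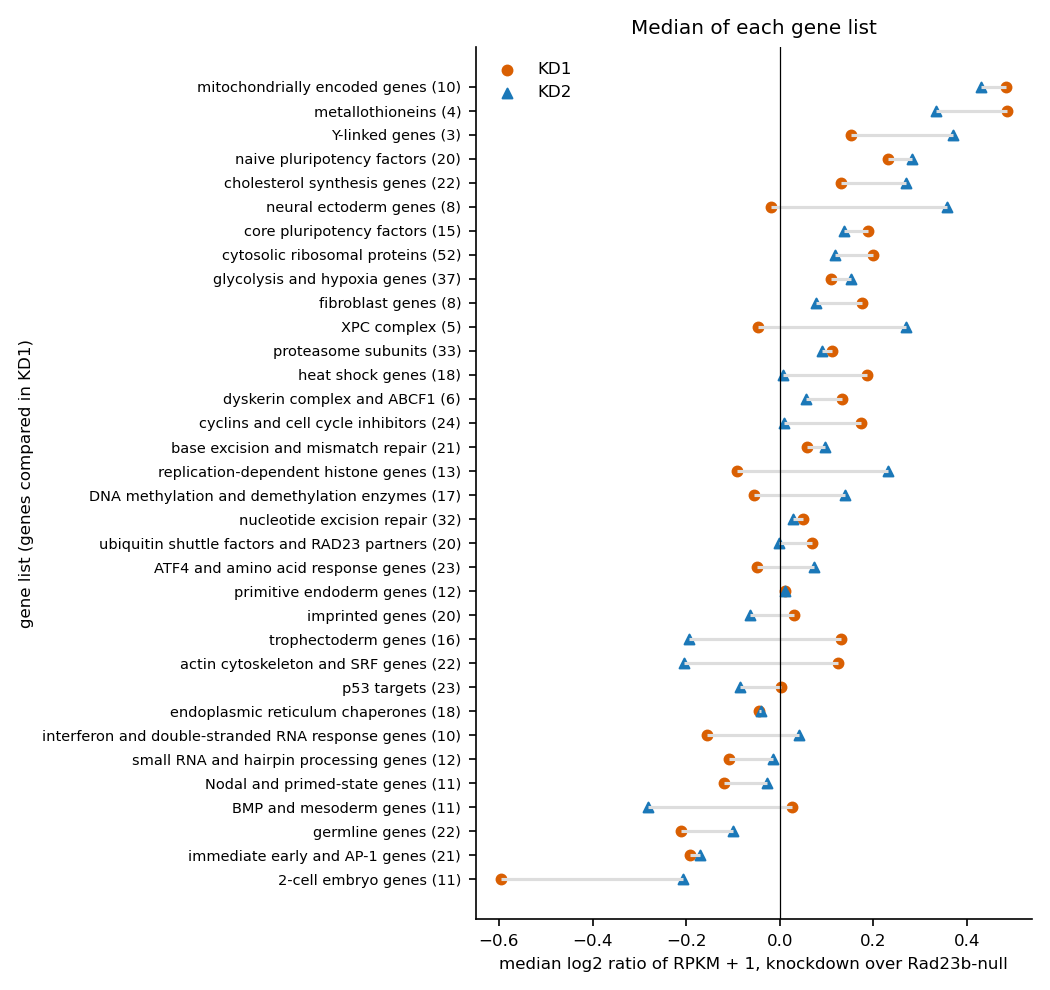
Median log2 ratio of RPKM + 1, knockdown over Rad23b-null, of each of the 34 gene lists, with circles for knockdown 1 and triangles for knockdown 2 and the number of genes compared in knockdown 1 in brackets. The medians lie between -0.60 (2-cell embryo genes, knockdown 1) and 0.48, and most lie within 0.30 of 0. The -0.60 is of a set filtered partly through Rad23b-null, and over the 15 members found it is -0.41.

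Markers of other cells are given beside the trophectoderm values above. Of 21 fibroblast genes, which would mark feeder cells, 12 were under 1 RPKM in all 4 libraries, and Col3a1, Postn, Lum and Dcn were under 0.1. Their summed level was 243 RPKM in Rad23b-null and, in the knockdowns, 279 and 284, with Vim (86.3, 101 and 125) the largest part; Tagln, given above, was the 1 member past 1.5-fold, in knockdown 1. Of 21 primitive endoderm genes 12 were compared and 0 passed 1.5-fold; Hnf4a, Afp and Ttr were under 0.1. The summed trophectoderm level was 481, 516 and 408 RPKM. The stem cell markers were present in all 4 libraries, with a summed level of the 15 core genes between 4839 and 6786.

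The counts of lincRNAs far from Rad23b-null were small. Of 359 compared in knockdown 1, the 2-fold limit was passed by 1 upward and 3 downward (1.11%, against 0.657% of all genes). Of 348 in knockdown 2, it was passed by 1 upward and 0 downward (0.287%, against 0.58%). In knockdown 1 Gm14260, Gm15218 and A730099G02Rik, the last 2 on shared coordinates, reached 1 RPKM only through the library where they are high. Nothing is read from these counts. Gm14742, on the X chromosome, was the furthest down by the smaller of both differences, at 10.1 RPKM in Rad23b-null and, in the knockdowns, 3.54 and 4.61, with wild type at 0.377. Gm12798 was at 3.94, 1.49 and 1.87, and Gm15218, on shared coordinates, at 2.31, 0.572 and 0.971. For these the knockdowns lay between Rad23b-null and wild type (0.314 and 0.0383). By the smaller of both differences, the furthest up were Gm14260, at 0.265, 1.67 and 1.09, E130018N17Rik, at 1.91, 3.73 and 3.32, and 5530601H04Rik, at 6.72, 11.3 and 10.7. For these the knockdowns stood above both other libraries. The 1 lincRNA past 2-fold upward in knockdown 2 was 2810008D09Rik, at 9.67, 3.74, 5.19 and 10.8, picked after its values were seen.

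RAD23B occupancy, mapped by ChIP-seq in wild-type D3 stem cells, gave a readout that did not enter the choice of genes. A region listed in both wild-type replicates lay within 1 kb of the start of 73.7% of the 7746 compared genes with coordinates of their own in knockdown 1. Of the genes at least 2-fold lower in knockdown 1 it was 14 of 29 (48.3%), and of those higher 7 of 15 (46.7%). In knockdown 2 it was 14 of 19 lower (73.7%) and 14 of 22 higher genes (63.6%), against 73.6% of 7741. Xpc and Rad23b had such a region, as did Prmt2, Trps1, Cryab and Ctdsp2, while Cetn2, Eml2, Zfp618, Cmtm2a and Ncrna00085 had none. On 15 to 29 genes, the shares lay below that of all genes compared, except that the genes lower in knockdown 2 were level with it. The difference was not tested. Predicted models and clone names were more frequent among these genes. A name of their own had 25 of the 44 genes in knockdown 1 and 30 of the 41 in knockdown 2. Of all genes compared with coordinates of their own it was 6868 of 7746 and 6872 of 7741. The region shares were not split by kind of name, so they do not describe named genes alone.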

How the data were processed

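The members, gene lists and rules were chosen with earlier results of these data known. Expression tables were made by the authors. The submitters' processing notes name mm9 as the build and, as tools, Cuffdiff, TopHat2 2.0.6 and Cufflinks 2.0.2. They started from single-end 50-base reads of 6 µg total RNA per library, per the labels' protocols. Each deposited table gives RPKM for 1 mutant library and the wild-type library, scaled separately. Knockdown values were multiplied by 1.026 (knockdown 1) and 1.017 (knockdown 2), the median ratios of the wild-type columns. No deposited RPKM is 0 and 13889 wild-type values are exactly 1, so exactly 1 was read as 0. Lines naming no gene (72 of 36658, holding 0.00144% of the wild-type total) were dropped. The sources used here do not give read totals; steps between low values put the depth at 1.29, 1.23 and 1.26 times wild type (Rad23b-null, knockdown 1, knockdown 2), as rough values: the commonest ratio was shared by 113 of 4217, 169 of 4315 and 117 of 4263 low genes.

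Of 24204 protein_coding and lincRNA lines, those with RPKM of at least 1 in either library were compared as log2 of RPKM + 1, and 7993 share coordinates with another gene. With 1 library per group, differences were counted at 2-fold and 1.5-fold, with no test. Genes were named by these rules: the 12 highest and 12 lowest with own coordinates by the smaller of both differences, the 4 highest and lowest of each comparison, 3 lincRNAs each way, the XPC complex, and up to 4 members per list by mean difference; other list members described were chosen after their values were seen. RAD23B regions are those of the deposited lists, with the authors' fold (ratio) over IgG; Partek is named in the submitters' processing notes. A region of replicate 1 overlapping replicate 2 by 1 bp was counted as shared (38822 of 59768). The heading of the replicate 2 list names replicate 1 libraries; its sample was taken from the series record. Values of 2 genes that these rules name are not reported here. The scaling and counting were run on simulated data with less spread than these libraries and with planted changes larger than 2-fold. That run checks the arithmetic and says nothing about how reliable the counts given here are. Python 3.11.15, numpy 2.4.6, pandas 2.3.3, scipy 1.17.1 and matplotlib 3.10.9 were used.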

Additional observations from a re-analysis of the deposited data

Results flagged for a closer look

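The genes below stood on opposite sides of Rad23b-null with the 2 hairpins and at least 2-fold apart between them. With 1 library each the difference was not tested. log2 ratios are given for knockdown 1 and then knockdown 2.

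Cbx8, a Polycomb subunit gene, was past 2-fold in both, at -2.64 and 1.01; its RPKM was 0.858 in wild type, 12.7 in Rad23b-null, 1.19 with the first hairpin and 26.6 with the second. Pof1b was at 5.71 and -0.18, and Tnrc6b at -0.15 and 2.66. Lgals7, a galectin gene, was at -1.38 and 0.81. Among higher values in knockdown 1 were Anxa1 (1.09 and -0.23), Sgce (1.02 and -0.060), Tagln (0.80 and -0.54) and the growth factor gene Igf2 (0.42 and -0.73). Pof1b, Tagln and Igf2 are on shared coordinates. Trh (-0.053 and 1.29), AA467197 (-0.031 and 1.21), Il17rc, an interleukin receptor subunit gene (-0.091 and 1.21), Fam65a (-0.33 and 1.19) and Tex13 (-0.27 and 0.78) were higher with the second hairpin. Prdx3 was at -1.08 and 0.13 and Prdx6 at 0.12 and -1.01. Arap2 (0.11 and -1.09) and Azi1 (0.11 and -1.04) were lower with the second hairpin.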

How the results depend on the processing

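No paired analysis was possible because each RNA group has 1 library and the ChIP lists were not compared between groups. The counts given here are for knockdown 1 higher and lower, knockdown 2 higher and lower, and the knockdowns against each other (25, 58, 34, 39 and 64 genes at least 2-fold apart). A pseudocount of 0.1 gave 84, 129, 70, 98 and 174, and a pseudocount of 5 gave 11, 20, 22, 19 and 26. Genes with coordinates of their own gave 15, 29, 22, 19 and 33, and all gene types 236, 304, 247, 269 and 501. Reading exactly 1 as an RPKM of 1 raised the higher counts to 310 and 233 and the count between the knockdowns to 412. Leaving out predicted models and clone names, chosen after seeing the data, gave 12 and 35 in knockdown 1 and 18 higher in knockdown 2. Fewer genes are compared in the narrower settings and more in the wider ones; other causes were not tested. The settings for the knockdowns against each other were added after seeing the data. Xpc stood at -3.02 and -3.06 log2 with a pseudocount of 0.1 and at -1.17 in both with 5. The share of all compared genes with a RAD23B region at the start was 79.1% and 79.0% within 5 kb, and 82.9% and 82.8% from replicate 1 alone. For Xpc and the named genes checked, no difference of at least 2-fold changed sign under the scaling, centring and pseudocount settings. A pseudocount cannot change a sign, and the scaling and centring shifts are far smaller than 2-fold. The outcome was thus fixed in advance, and nothing is read from it. Signs of other genes, or under the other settings, were not checked. Of the alternatives for named genes 1753 moved little and 147 moved more. Depth limits genes near 1 RPKM, whose values rest on few reads.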

Other observations

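Y-linked genes separated the wild-type library from the other 3 more than the hairpins did. Eif2s3y, a translation initiation factor gene, was at 2.26 RPKM in wild type, 13.9 in Rad23b-null, 15.5 with the first hairpin and 14.9 with the second. Uty, a demethylase gene, was at 0.309, 2.22, 2.98 and 3.37, and Ddx3y, a helicase gene, at 2.59, 4.55, 4.60 and 6.16. Kdm5d, Zfy2, Sry and Usp9y were under 0.1 in all 4 libraries.

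Cbx8 and Vps8, a vacuolar sorting gene, each had a high and a low pair of libraries. Vps8 was at 10.3 RPKM in wild type and 8.69 in knockdown 1, and at 92.9 in Rad23b-null cells and 90.9 in knockdown 2.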
